A study of Macaca mulatta with 2 samples.

Results

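The genes described here are 50 genes of neural stem cells, dividing progenitors and newborn neurons, among the 33618 genes counted in the prefrontal cortex of infant rhesus macaques. They were taken from the count table by their symbols, and all 50 were in it. The series asked how repeated sevoflurane anesthesia changes gene expression in the infant primate cortex. Only 1 control and 1 sevoflurane library were analysed here, each labelled as prefrontal cortex of an animal aged 28 days, although the study describes more animals in each group. By the labels, the treated animal inhaled 2.5 to 3% sevoflurane for 4 h at a time, on about postnatal days 7, 14 and 28. The methods of the study put the last 2 exposures at later ages and the collection of the tissue right after the final one. The labels name no treatment for the control animal, and its handling before collection is not given in the sources used here. No strain, genotype or transgene is named for either animal. By the methods, the control animals were all female, the anesthesia group held both sexes, and the animals were kept warm and went back to their mothers after the anesthesia.

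In the developing cortex, radial glia divide along the ventricle and are held as progenitors by Notch signalling. A DLL ligand on one cell activates a NOTCH receptor on its neighbour, the cleaved receptor binds RBPJ, and HES genes are switched on that repress the proneural genes. A cell that leaves this state expresses proneural bHLH factors, becomes an intermediate progenitor or a newborn neuron, and then carries doublecortin and polysialylated NCAM while it migrates and extends its processes. Cortical neurogenesis is largely over by birth in macaques, but astrocytes and oligodendrocyte precursors keep many of the progenitor genes, and neurons that are still maturing keep many of the immature neuron genes. The libraries come from bulk tissue, so fewer cells of a type and less RNA per cell cannot be told apart.

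Gene counts summed to 16960880 reads for the control animal and 9839105 for the sevoflurane animal, so the control was 1.72 times as deep. Levels are given as CPM (read counts relative to a common library size, scaled by edgeR's TMM method) and are compared between the libraries for the same gene and never between genes, since no transcript lengths were used. Differences are log2 ratios, sevoflurane over control, with 2 reads added as a prior, and the 95% interval comes from the exact Clopper-Pearson limits for the fraction of a gene's reads that fell in the sevoflurane library. The intervals cover counting error only. With 1 library per group there is no measure of the variation between animals and no p-value, and every difference below is one between these 2 libraries. A gene was called 2-fold higher or 2-fold lower if the ratio reached 1 in either direction and equal expression lay outside the interval. A further difference lay in 7 Y-linked genes, whose reads summed to 3 reads for the control and 4308 for the sevoflurane animal, so sex and treatment cannot be told apart, which bears on X-linked genes such as DCX.

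Most of the 50 genes were detected in both libraries at this age. At least 1 CPM was reached in both libraries by 40 genes, in the control library alone by DLL3 and INSM1, and in the sevoflurane library alone by NEUROD4. These 43 genes were compared between the libraries and are referred to as tested, and the other 7 were not. The pluripotency gene POU5F1 (Oct4) and the proneural gene NEUROG2 had 0 reads in both libraries. EOMES (Tbr2), which marks the intermediate progenitors of the embryonic cortex, had 0 and 1 reads, and the progenitor gene SOX3 had 3 in each. These 4 genes lay at or under the floor of 3 reads, equal to 0.179 CPM for the control and 0.302 CPM for the sevoflurane animal. HMGA2, a chromatin protein of early stem cells, had 2 control and 5 sevoflurane reads. IGF2BP1, a fetal mRNA-binding protein, had 1 and 4 reads, and NHLH1, a factor of newly formed neurons, had 5 and 7. NEUROG2 and EOMES, which act in the embryonic progenitors of excitatory neurons, were thus not detected above the floor.

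**Figure D1:**
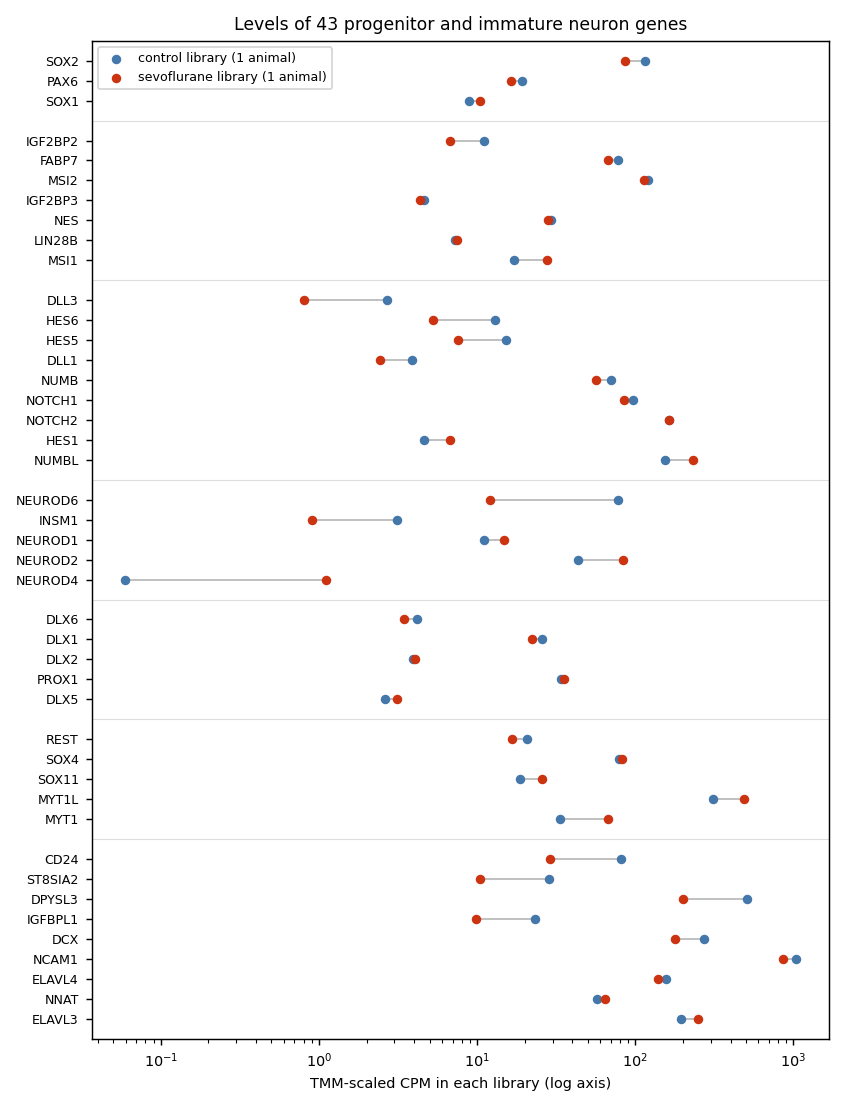
Level of each of the 43 tested genes in the control library (blue) and the sevoflurane library (red), as TMM-scaled CPM on a log axis, with 1 animal per group and the genes grouped by role. The widest gap to the left is that of NEUROD6 (78.3 and 11.98 CPM), followed by INSM1 and DLL3 and then CD24 and ST8SIA2, and NEUROD4 at 0.0595 and 1.11 CPM rests on 1 and 11 reads.

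Of the 43 tested genes, 8 were 2-fold lower in the sevoflurane library and 2 were 2-fold higher. The lower genes made up 18.6% of those tested, beside 5.47% of all 18050 tested genes, and the higher ones 4.65%, beside 7.56%. The 8 lower genes were NEUROD6, INSM1, DLL3, HES6, CD24, ST8SIA2, DPYSL3 and IGFBPL1, and the 2 higher ones were NEUROD4 and MYT1. Among these, DLL3 and INSM1 entered the test through their control level and NEUROD4 through its sevoflurane level, so that each of them had to differ. Without regard to size, the interval excluded equal expression in 18 genes that were lower (41.9%) and 11 that were higher (25.6%), beside 28.1% and 28.4% of all tested genes. The median log2 ratio over the 43 genes was -0.17, beside -0.0048 over all tested genes. The 43 genes thus differed in both directions, and they are described by role. A further scale was the median of 12 markers listed as pan-neuronal, which include GAD1 and GAD2 of interneurons and SLC17A7 of excitatory neurons. That median lay between GAD2 (-0.30) and GAD1 (-0.23). Taken relative to it, all ratios were 0.27 higher, so that a log2 ratio between -0.27 and 0 changed sign. On that scale 7 of the listed genes were lower and 3 higher, and of all tested genes 601 were lower and 2201 higher, beside 988 and 1364 with TMM.

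**Figure D2:**
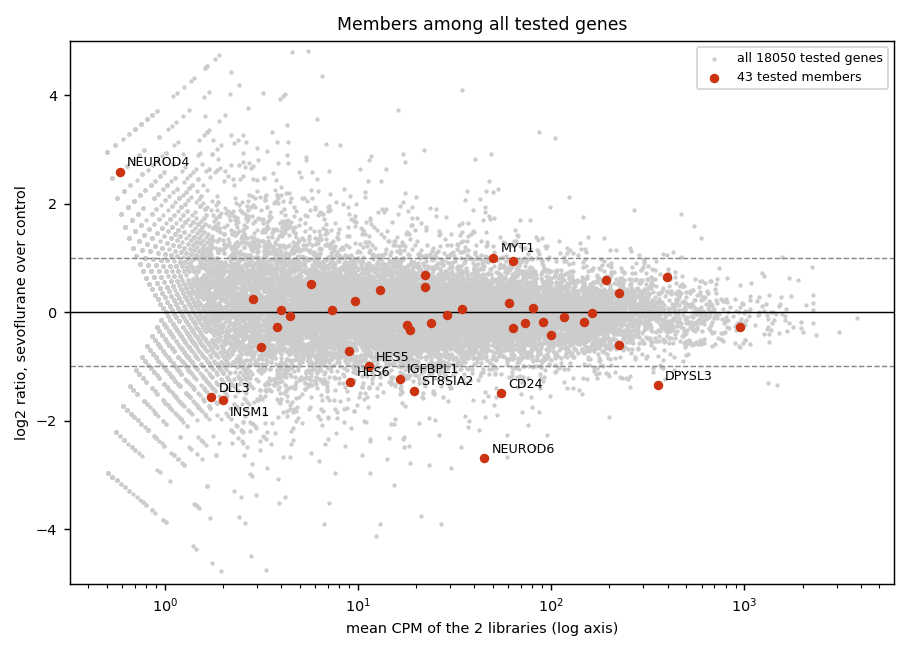
Log2 ratio of sevoflurane over control against the mean CPM of the 2 libraries (log axis) for all 18050 tested genes (grey) and the 43 tested members (red), with dashed lines at 2-fold; 26 genes lie outside the plotted range of 5 in either direction. NEUROD6 has the 88th lowest ratio of all tested genes. CD24 and DPYSL3 lie below the lower dashed line, while most members lie between the dashed lines.

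Of the surface, cytoskeletal and RNA-binding genes of immature neurons, 4 of 9 (44.4%) were 2-fold lower and 0 were 2-fold higher. The share of 2-fold lower genes was 40% in the proneural group, with 5 tested, and 5.47% over all tested genes. The 40% counts INSM1, which entered the test through its control level alone, and the 5 include NEUROD4, which entered through its sevoflurane level. Over all tested genes, 7.56% were 2-fold higher. The groups were chosen with earlier results of these data known, so a comparison of these shares tests nothing. DPYSL3 (CRMP4), a collapsin response mediator protein that acts on the cytoskeleton of growing axons, had 8575 control and 2000 sevoflurane reads, or 510 and 201 CPM. Its log2 ratio was -1.34 (95% interval -1.41 to -1.27), a 2.53-fold lower level. CD24, a surface glycoprotein of newborn neurons, had 1363 and 286 reads, or 81.1 and 28.8 CPM. It was 2.82-fold lower, with a log2 ratio of -1.49 (95% interval -1.68 to -1.31). ST8SIA2, the sialyltransferase that adds polysialic acid to NCAM in the young brain, had 479 and 103 reads, or 28.5 and 10.4 CPM, with a log2 ratio of -1.45 (-1.78 to -1.15). IGFBPL1, an insulin-like growth factor binding protein-like gene of newborn neurons, had 388 and 97 reads, or 23.1 and 9.77 CPM, with a log2 ratio of -1.23 (-1.58 to -0.92). These 4 genes stood among the lowest 3.76% of all tested genes by log2 ratio, a rank that largely follows from the call itself. An interval clear of equal expression was likewise a condition of the call. The sevoflurane level of the 4 genes was 35.5% to 42.3% of the control level.

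The remaining immature neuron genes differed less. Doublecortin (DCX), the microtubule-associated protein of migrating neurons, had 4551 control and 1767 sevoflurane reads, or 271 and 178 CPM. Its log2 ratio of -0.61 (95% interval -0.69 to -0.53) stayed short of 2-fold but was beyond counting error. NCAM1, the adhesion molecule that carries polysialic acid, had 17397 and 8476 reads, or 1035 and 854 CPM, with a log2 ratio of -0.28 (-0.32 to -0.24). The carrier NCAM1 was thus reduced far less than the enzyme ST8SIA2 in the same libraries. The neuronal RNA-binding genes ELAVL4 (HuD) and ELAVL3 (HuC) had log2 ratios of -0.17 (2621 and 1372 reads) and 0.36 (3289 and 2487 reads), and relative to the pan-neuronal markers ELAVL4 changed sign, to 0.091. NNAT, an imprinted proteolipid of the developing brain, had 956 and 637 reads and was slightly higher at 0.17 (95% interval 0.03 to 0.32). NNAT overlaps BLCAP in the RefSeq annotation, and since strand use in the counting is not given in the sources used here, its reads and those of BLCAP (log2 ratio 0.09) may not be fully separate. Over the 9 genes, 7 were lower (77.8%) and 2 higher (22.2%) beyond counting error. These shares were 28.1% and 28.4% over all tested genes, and 75% and 16.7% over the pan-neuronal markers. The median log2 ratio of the 9 genes was -0.61, and their summed level in the sevoflurane library was 73.6% of the control.

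The transcription factors of newborn neurons did not share this direction. SOX4 and SOX11, related factors that drive the neuronal programme after cell cycle exit, had 1320 and 823 reads and 312 and 256 reads in the control and sevoflurane libraries. SOX4 was at a log2 ratio of 0.08 (95% interval -0.05 to 0.20), which includes equal expression, and SOX11 at 0.47 (0.23 to 0.72). MYT1, a zinc finger factor of differentiating neurons and oligodendrocyte lineage cells, had 562 control and 666 sevoflurane reads, or 33.4 and 67.1 CPM. Its log2 ratio was 1.00 (95% interval 0.84 to 1.17), at the threshold of the call, which was lost when the control library was sampled down to equal depth. MYT1L, a related factor that keeps non-neuronal genes silent in neurons, had 5216 and 4804 reads, or 310 and 484 CPM, with a log2 ratio of 0.64 (0.58 to 0.70). REST, which represses neuronal genes in non-neuronal cells and progenitors, had 348 and 164 reads and was lower at -0.32 (-0.60 to -0.05). SOX4, SOX11, MYT1 and MYT1L were thus level or higher, and REST was lower. Of the 7 listed genes of the REST corepressor complexes, RCOR2 alone was 2-fold higher, at 328 and 460 reads and a log2 ratio of 1.24 (95% interval 1.04 to 1.46), 0 were 2-fold lower, and the median was 0.23. Over all tested genes, 7.56% were 2-fold higher and 5.47% 2-fold lower.

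**Figure D3:**
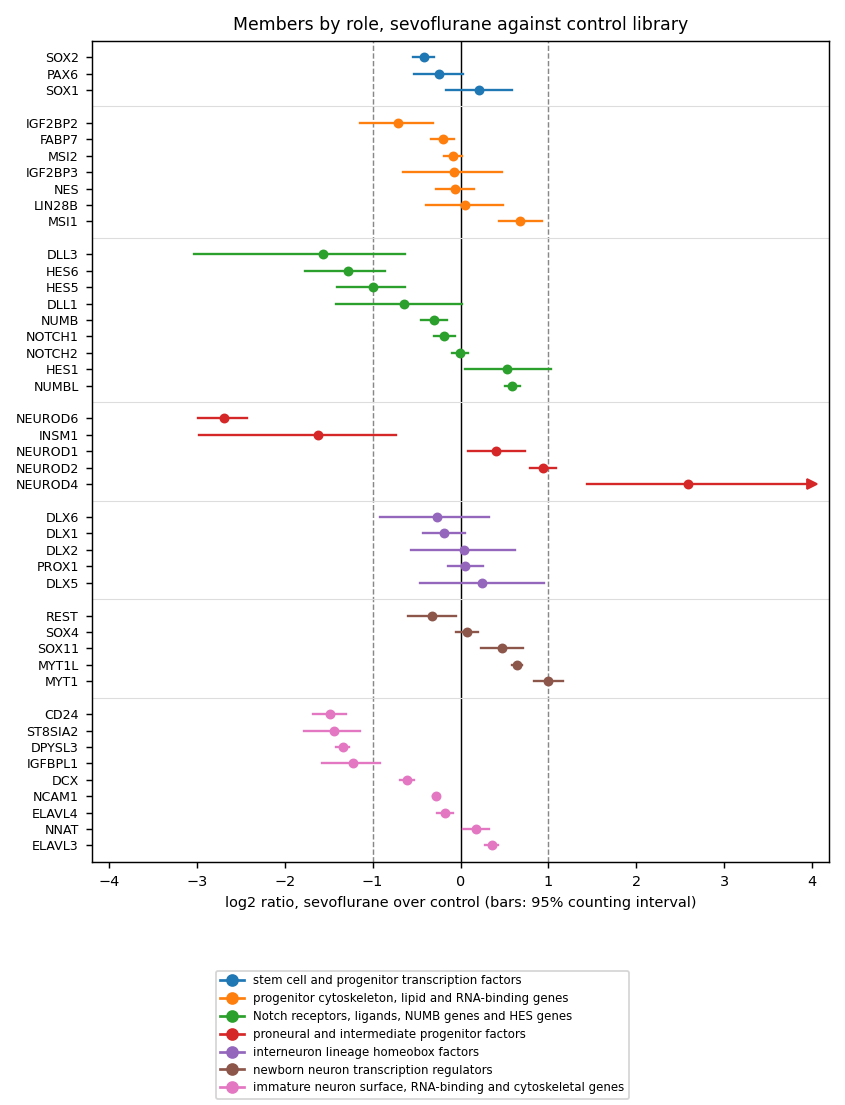
Log2 ratio of sevoflurane over control for the 43 tested genes, grouped and coloured by role, with bars for the 95% counting interval (the arrow marks an interval that runs past the axis) and dashed lines at 2-fold. The immature neuron genes at the bottom and the Notch group reach the 2-fold line on the left, the interneuron factors all overlap 0, and the proneural factors spread from -2.69 to 2.59.

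The proneural and neuronal bHLH factors showed the widest spread of any group. NEUROD6, a bHLH factor of cortical excitatory neurons, had 1315 control and 119 sevoflurane reads, or 78.3 and 11.98 CPM. Its log2 ratio was -2.69 (95% interval -2.99 to -2.44), which was the lowest of the 43 genes and the 88th lowest of the 18050 tested genes. NEUROD2, a close relative expressed in the same excitatory lineage, had 734 and 833 reads, or 43.7 and 83.9 CPM, and a log2 ratio of 0.94 (0.80 to 1.09). NEUROD1, which acts earlier in the lineage, had 187 and 147 reads and was also higher, at 0.41 (0.09 to 0.73). NEUROD6 and its relatives therefore differed in opposite directions between the same libraries, with intervals that did not overlap. SLC17A7, the vesicular glutamate transporter of cortical excitatory neurons, was at -0.13 (16767 and 9073 reads). NEUROD4 had 1 control and 11 sevoflurane reads, and its log2 ratio of 2.59 has an interval from 1.44 to 9.65. INSM1, a zinc finger factor of intermediate progenitors and newborn neurons, had 52 and 9 reads, with a log2 ratio of -1.62 (95% interval -2.98 to -0.74). Both calls rest on few reads in 1 library, and each of these genes entered the test through the other library alone.

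In the Notch group, 2-fold calls fell on a ligand and a HES gene and on neither receptor. NOTCH1 had 1629 reads in the control and 847 after sevoflurane, at a log2 ratio of -0.18 (95% interval -0.31 to -0.06), or 0.081 relative to the pan-neuronal markers, and NOTCH2 had 2754 and 1617 reads, at -0.01 (-0.10 to 0.08). The receptors were therefore close to equal. DLL3, a Notch ligand family member that acts within the cell and inhibits the pathway, had 45 and 8 reads, or 2.68 and 0.806 CPM, with a log2 ratio of -1.57 (95% interval -3.03 to -0.63). DLL1, the activating ligand of newborn neurons and progenitors, had 65 and 24 reads, and its interval of -1.42 to 0.02 around -0.65 includes equal expression. DLL3 overlaps GMFG in the RefSeq annotation, and GMFG, with 85 and 47 reads, had a log2 ratio of -0.09. The ligands were thus the least covered genes of this group, and DLL3 alone of them was called. DLL3 entered the test through its control level alone, so that it had to differ, and its call does not set it apart from DLL1.

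The HES genes, which include targets of the pathway, were split. HES5, a Notch target that keeps radial glia undifferentiated and is also found in astrocytes, had 256 control and 75 sevoflurane reads, or 15.2 and 7.55 CPM. It was 2.02-fold lower by CPM, and with the prior count its log2 ratio of -0.998 (95% interval -1.40 to -0.64) fell just short of the call. HES6, which opposes HES1 and promotes neuronal differentiation, had 217 and 52 reads, or 12.9 and 5.24 CPM, with a log2 ratio of -1.28 (-1.77 to -0.86). HES1 itself, with 78 and 67 reads, was higher at 0.53 (0.05 to 1.03). HES1 therefore did not share the direction of HES5, although both are textbook targets of Notch. NUMB and NUMBL, related adaptors that antagonize Notch and are handed to 1 daughter cell at division, also went opposite ways. NUMB had 1172 and 562 reads and a log2 ratio of -0.30 (-0.45 to -0.16), and NUMBL had 2587 and 2303 reads and one of 0.59 (0.51 to 0.67).

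Among the 25 other listed genes of the Notch pathway, 0 were 2-fold apart, beside 5.47% lower and 7.56% higher over all tested genes. Beyond counting error, 8 were lower (32%) and 5 were higher (20%), beside 28.1% and 28.4% of all tested genes. The median log2 ratio was -0.09. The nuclear effector RBPJ had 1510 and 812 reads, at -0.14 (95% interval -0.26 to -0.01). The lowest of these genes was RFNG, a glycosyltransferase that modifies the receptor (-0.90), and the highest was the coactivator MAML3 (0.80). Of the further target genes of the pathway, HEY1 was at -0.39 (502 and 226 reads) and NRARP at 0.55 (72 and 63 reads). The target genes HES1, HES5, HEY1 and NRARP thus gave no common direction.

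The progenitor transcription factors differed little. SOX2, the factor of neural stem cells that astrocytes and their precursors also express, had 1925 control and 850 sevoflurane reads, or 115 and 85.6 CPM, with a log2 ratio of -0.42 (95% interval -0.54 to -0.30). PAX6, the radial glia factor, had 325 and 162 reads, and its log2 ratio of -0.24 (-0.53 to 0.03) includes equal expression. SOX1, a close relative of SOX2, had 150 and 103 reads and a log2 ratio of 0.21 (-0.16 to 0.59). Of the 3 tested factors, SOX2 alone was beyond counting error. The intermediate filament gene NES (nestin) had 494 and 280 reads, with an interval from -0.28 to 0.15 that includes equal expression. The brain lipid-binding protein gene FABP7, shared by radial glia and young astrocytes, had 1310 and 672 reads and a log2 ratio of -0.20 (-0.34 to -0.07), or 0.062 relative to the pan-neuronal markers. No gene named as a progenitor marker in these sentences reached 2-fold in either direction. Over all tested genes, 5.47% were 2-fold lower and 7.56% 2-fold higher.

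The RNA-binding genes of progenitors included 1 higher and 1 lower gene. MSI1 (Musashi), which represses translation of NUMB in stem cells, had 288 control and 273 sevoflurane reads, or 17.1 and 27.5 CPM, with a log2 ratio of 0.68 (95% interval 0.44 to 0.93). Its relative MSI2 had 2009 and 1119 reads and was at -0.09 (-0.19 to 0.02). IGF2BP2, an mRNA-binding protein of the same family as IGF2BP1, had 187 and 67 reads, or 11.1 and 6.75 CPM, and was lower at -0.71 (-1.15 to -0.31). IGF2BP3 with 77 and 43 reads (-0.08) and LIN28B, the inhibitor of let-7 microRNA processing, with 121 and 74 reads (0.05) both had intervals that include equal expression. LIN28B and IGF2BP3 were thus still detected in the infant cortex, unlike their fetal partner HMGA2, which stayed under 1 CPM. Over the 7 tested genes of this group, NES and FABP7 included, the median log2 ratio was -0.08, and 0 were 2-fold apart. Over all tested genes, 5.47% were 2-fold lower and 7.56% 2-fold higher, so a count of 0 among 7 genes is near these shares.

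The homeobox factors of interneurons were the group in which no interval excluded equal expression. DLX1 and DLX2, which specify interneurons in the ganglionic eminences, had 429 and 222 reads and 66 and 40 reads in the control and sevoflurane libraries. DLX5 and DLX6, which act after them, had 44 and 31 reads and 70 and 34 reads. The log2 ratios of the 4 DLX genes ran from -0.27 (DLX6) to 0.24 (DLX5), and all 4 intervals include equal expression. PROX1, kept in interneurons of caudal origin, had 571 and 351 reads and a log2 ratio of 0.06 (95% interval -0.14 to 0.25). For DLX5, the interval reached from -0.46 to 0.95, so that a difference approaching 2-fold was not detectable at this depth. Of the 9 tested markers of mature interneurons, PVALB, the calcium-binding protein of fast-spiking cells, was 2-fold higher, at 68 and 221 reads and a log2 ratio of 2.42 (2.06 to 2.87), and the median was -0.23.

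Markers of other cells that express some of these genes moved between the libraries as well, and their part in the results was not tested. Over all tested genes, 28.1% were lower and 28.4% higher beyond counting error, and 5.47% and 7.56% were called 2-fold lower and higher. The 12 pan-neuronal markers had a median log2 ratio of -0.27, with 9 lower and 2 higher beyond counting error and 0 called 2-fold, and their summed level was 83.6% of the control. They ran from TUBB3 (Tuj1), the tubulin of young and mature neurons, at -0.75 to RBFOX3 (NeuN) at 0.83. The 10 astrocyte markers, which stand beside SOX2, HES5 and FABP7, had a median of -0.42 and a summed level of 74.0% of the control. GFAP at -1.35 and AQP4 at -1.38 were called lower, whereas SOX9 at 0.99 and SLC1A3 at 0.27 were higher. The 7 oligodendrocyte precursor markers had a median of -0.40, with 6 lower beyond counting error and GPR17, which marks the step from precursor to myelinating cell, at -1.29. The 10 myelin genes were lower throughout, with 9 of 10 called 2-fold lower, a median of -1.29 and a summed level of 48.5% of the control. The members of the immature neuron group that were called lower thus stood beside lower myelin and partly lower astrocyte genes.

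The other marker lists showed no common decrease. The 10 markers of outer radial glia, the progenitors of the outer subventricular zone, had a median of 0.01. Among them, the matrix gene TNC was lower at -1.02 and VIM (vimentin) higher at 0.98. Of the 10 proliferation markers, 7 were tested and had a median of 0.13, and the cycling cell gene MKI67 was lower at -1.06 with 98 control and 27 sevoflurane reads. CDK1, tested through its control level alone, was lower at -1.52 with 29 and 5 reads, and TYMS was higher at 1.09 with 17 and 23 reads. The median was 0.25 for 8 microglia markers and 0.06 for 6 endothelial markers. The 8 markers of meninges and choroid plexus had a median of 0.87, with 4 called higher and 1 called lower, and their summed level was 199% of the control. Called higher were SLC13A4 at 4.09 (62 and 650 reads), COL1A1 at 1.14 (1307 and 1708 reads), SLC22A8 at 5.29 and TTR. SLC22A8 had 2 control and 103 sevoflurane reads and TTR 2 and 31, and both were tested through their sevoflurane level alone. CLIC6 was called lower at -1.82 with 126 and 20 reads.

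**Figure D4:**
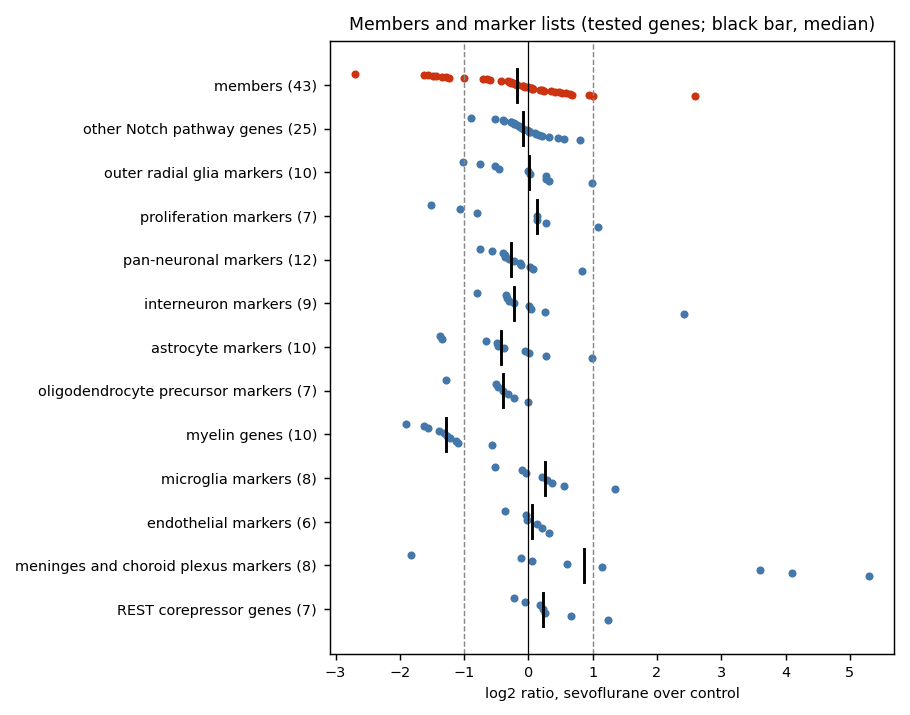
Log2 ratio of sevoflurane over control for the tested genes of the 50 members (red) and of each marker list (blue), with the number of tested genes in brackets, the median as a black bar and dashed lines at 2-fold. The myelin genes lie farthest to the left with a median of -1.29, and the members spread on both sides of 0 around -0.17.

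Paralogs of the listed genes, chosen after the values of the listed genes had been seen, show how far a difference was shared within a family. They comprised 40 genes of 12 families, of which 30 were tested, 3 were 2-fold lower and 2 were 2-fold higher. Over all tested genes, 5.47% were 2-fold lower and 7.56% were 2-fold higher. In the collapsin response mediator family, all 5 genes were lower beyond counting error. That share was 28.1% over all tested genes and 75% over the pan-neuronal markers. DPYSL3 at -1.34 was the lowest, followed by DPYSL2 at -0.83 (448 and 148 reads), DPYSL5 at -0.81, DPYSL4 at -0.37 and CRMP1 at -0.28. CRMP1 was thus close to the pan-neuronal median of -0.27. ST8SIA4, the other enzyme that makes polysialic acid on NCAM, was called lower with ST8SIA2, at 261 control and 68 sevoflurane reads and a log2 ratio of -1.16 (95% interval -1.59 to -0.79). ST8SIA1, ST8SIA3 and ST8SIA5, which act mainly on other substrates, were at -0.01, -0.53 and 0.14. ST8SIA6 had 17 control and 0 sevoflurane reads, and its 95% interval lay below a log2 ratio of -1.29. It was called lower but entered the test through its control level alone, so that it had to differ. The polysialic acid enzymes were thus lower together, while their carrier NCAM1 was at -0.28 and its relative NCAM2 at 0.21.

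In other families the relatives went separate ways. Of the doublecortin family, DCLK1 and DCLK2 were at -0.23 and -0.27, between DCX at -0.61 and equal expression. DCLK3 was 2-fold higher at 2.27, with 305 control and 873 sevoflurane reads. ELAVL2, a neuronal relative of ELAVL3 and ELAVL4, was lower at -0.91 (1997 and 629 reads). Of the neurogenic bHLH factors, BHLHE22, a factor of cortical projection neurons, was higher at 0.85 (396 and 423 reads), in the direction of NEUROD2 and opposite to NEUROD6. INSM2 had 7 and 18 reads and was called higher at 1.79, but it entered the test through its sevoflurane level alone, as INSM1 did through its control level. HES4 was at -0.11 (602 and 329 reads), between HES1 and HES5. FABP5, a relative of FABP7, was called lower at -1.64 with 100 and 18 reads.

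**Figure D5:**
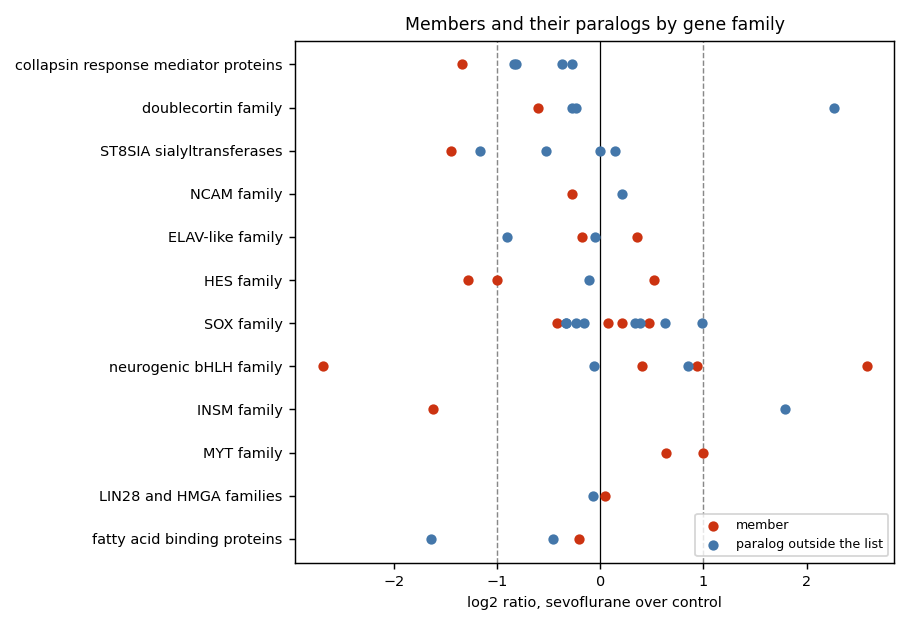
Log2 ratio of sevoflurane over control for listed genes (red) and their paralogs outside the list (blue) in each of 12 gene families, for tested genes with reads in both libraries, with dashed lines at 2-fold. All 5 collapsin response mediator genes lie to the left of 0, while the bHLH family holds the widest spread, from NEUROD6 at -2.69 to NEUROD4 at 2.59.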

How the data were processed

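RNA-seq of macaque prefrontal cortex was analysed for 1 control and 1 sevoflurane animal, grouped by the sample titles. The deposited values are raw whole-number counts, 1 column per library. The submitters' processing notes name HISAT2 2.0.4, and the counting tool, genome build, annotation and strand setting are not given in the sources used here, so no coordinates are given. From the counts, edgeR 4.0.16 in R 4.3.3 gave TMM factors of 0.991 (control) and 1.01 (sevoflurane), over the genes reaching 1 CPM in 1 library or both, which were then tested. Ratios used a prior count of 2, and intervals came from scipy 1.17.1 (Python 3.11.15, numpy 2.4.6, pandas 2.3.3; plots with matplotlib 3.10.9). With 1 library per group, no test of edgeR could be fitted. Reads were found on 22897 genes in the control and on 22901 after sevoflurane.

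The members, their groups and the marker lists were chosen with earlier results of these data known. All 50 members are named, and of each marker list its counts, median and chosen genes; some items are not reported here. RefSeq names of MMU8v2.0 matched all 50 and were used for overlapping genes. The procedure was tested on simulated data of 17699 genes and recovered 99.0% of the genes given a 4-fold change, with 82 unchanged genes called. The simulated libraries held counting error only and no 2-fold changes. These rates therefore do not measure errors that come from variation between animals. Other scalings (DESeq2 1.42.0 size factors, library totals, upper quartile, pan-neuronal markers), a prior count of 0.5, other filters, a control library sampled down and other thresholds were tried.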

Additional observations from a re-analysis of the deposited data

How the results depend on the processing

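The 8 lower genes were the same 8 with library totals, DESeq2 size factors, upper-quartile scaling, a filter of 1 read, the control library sampled down and the stricter interval. HES5 joined them with a prior count of 0.5. The 2 higher genes became 1 with the control sampled down (MYT1 lost), with a filter of 5 CPM (NEUROD4 not tested) and at 4-fold. At 1.5-fold, 6 were higher and 11 lower (DCX, HES5 and IGF2BP2 gained). At 4-fold, NEUROD6 alone (1 gene) was lower. With a filter of 5 CPM, 6 were lower, since DLL3 and INSM1 were not tested.

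Scaling to the pan-neuronal markers raised all ratios by 0.27, so that 7 genes were lower (IGFBPL1 lost) and 3 higher (NEUROD2 gained). FABP7 (0.062), NOTCH1 (0.081) and ELAVL4 (0.091) changed sign, as did 6 genes whose intervals had included equal expression (PAX6, NES, MSI2, IGF2BP3, NOTCH2 and DLX1). The median of the listed genes became 0.091, and those of the groups 0.022 (progenitor factors), 0.67 (proneural), 0.30 (interneuron), 0.19 (progenitor RNA-binding and related genes), -0.035 (Notch), 0.74 (newborn neuron regulators) and -0.34 (immature neuron genes). The proneural median was 0.74 with a filter of 1 read, which adds barely detected genes. Of 258 recomputed ratios of single genes, 234 stayed within their counting interval. With pan-neuronal scaling, 19 of the 43 ratios stayed and 21 moved outside the interval. Counted apart were the 3 that changed sign although their intervals had excluded equal expression. The 6 other sign changes are among the 19 and the 21. In each other setting recomputed in this way, all 43 stayed.

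Over all genes, 2201 were higher and 601 lower with pan-neuronal scaling, 570 and 501 with a filter of 5 CPM, 2604 and 2141 at 1.5-fold, and 352 and 221 at 4-fold. The other scalings shifted the median by 0.0053 (DESeq2), 0.027 (library totals) and 0.01 (upper quartile). No paired analysis was possible because only 1 animal per group was analysed here, and no replicate could be left out. The ratios of DLL3 and INSM1 are limited by 8 and 9 sevoflurane reads, and that of NEUROD4 by 1 control read.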
